A study of Homo sapiens with 12 samples.

Results

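Whole-cell RNA of Jurkat cells carrying a miR-21 construct was compared with whole-cell RNA of Jurkat cells carrying a control vector. The comparison used the 4 arrays labelled Total RNA, 2 per construct, out of 12 arrays in the study. The remaining 8 arrays, 2 per construct and antibody, profiled RNA recovered with an AGO2 antibody or with control IgG and are used below only to show where Total RNA differed from them. Jurkat is an established human T-cell leukaemia line, here grown in RPMI with 10% FBS. The cells of all 4 samples had been transduced, so the control group also carried a vector. The labels give no promoter, no transduced dose and no statement on clones or sorting for either construct. They number the arrays of each group 1 and 2 without saying that the numbers mark separate cultures, so every p-value below measures the spread between arrays, which may be technical. Each array was an Affymetrix 3' expression array hybridised with biotinylated cRNA made from 1 ug of Total RNA, against 100 ng for the immunopurified RNA. Levels are the authors' log2 values, in which a difference of 1 is a doubling. Each gene was read from 1 probe set, the one with the highest mean over the 12 arrays, and 12824 of 19775 genes passed the filter on low values (a mean over the 12 arrays of at least 4.02).

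A microRNA guides an Argonaute protein, such as AGO2, to messenger RNAs that pair with its seed, the bases near its 5′ end. Pairing usually lowers the level of the target mRNA and the protein made from it, most often modestly for any single target. miR-21 is abundant in many tumours and in activated T cells, and its reported targets include inhibitors of RAS-ERK signalling, pro-apoptotic genes and receptors of the TGF-beta family. The RefSeq mature sequence is shown because the construct was made to supply it, with the seed (bases 2 to 8) in capitals. It lies on the plus strand of GRCh38.p14 at chr17:59841273-59841294, inside the hairpin at chr17:59841266-59841337, which overlaps the 3′ end of the gene VMP1.
hsa-miR-21-5p: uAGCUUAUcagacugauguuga
miR-21 hairpin: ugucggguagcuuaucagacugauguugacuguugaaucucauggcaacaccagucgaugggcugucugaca

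The arrays held no probe set of the mature microRNA, and the 3 probe sets annotated to the miR-21 gene are each annotated to another gene as well, so none of them checks the construct directly. Probe set 220990_s_at read 8.40 and 9.36 in control vector replicates 1 and 2 and 8.38 and 9.35 in the miR-21 arrays of the same numbers. Within each replicate number those levels were within 0.03 of each other. Probe set 224917_at read 5.59 and 3.19 in the control arrays and 5.84 and 3.60 in the miR-21 arrays. The miR-21 array was higher in both replicates, by 0.25 and 0.41, while the groups overlapped because replicate 1 lay above replicate 2. Both replicate 2 levels lay below the background limits of those arrays defined below (5.104 for control, 5.087 for miR-21). Only the replicate 1 levels lay above theirs (4.799 and 4.436). Probe set 231697_s_at read 2.25 and 2.37 in the control arrays and 2.23 and 2.76 in the miR-21 arrays, a range that also held probe sets of unexpressed genes. The level of mature miR-21 in these cells was not analysed here.

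The replicate number set the arrays apart more than the construct did. The median over probe sets was 3.56 and 3.55 in the replicate 1 arrays and 4.48 in both replicate 2 arrays. With the AGO2 and IgG arrays included, the array mean was 4.39 to 4.41 in replicate 1 and 5.26 to 5.27 in replicate 2. Levels of different replicate numbers were thus offset on all arrays and do not share a scale. Across the genes tested the 2 constructs correlated at r = 0.9949 within replicate 1 and r = 0.996 within replicate 2, whereas the 2 control arrays correlated at 0.9644 and the 2 miR-21 arrays at 0.9663. The 3′ to 5′ difference of the ACTB control probe sets, which grows as RNA is shortened at its 5′ end, was 1.38 and 1.35 in replicate 1 and 3.53 and 3.18 in replicate 2. For GAPDH it was 0.222 and 0.139 in replicate 1 and 0.713 and 0.575 in replicate 2. In each pair the control value was the higher one. For this reason every comparison below is given as the paired difference, the miR-21 array minus the control array of the same replicate number. In bulk RNA of this kind, fewer cells with a transcript and less of it per cell cannot be told apart.

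Under both constructs the cells expressed T lineage genes, including genes of the T cell receptor complex and of thymocytes, while most markers of other cell types stayed at background. A gene was counted as above background where it exceeded the 95th percentile of 136 olfactory receptor and keratin-associated protein genes on an array, which came to 4.799, 4.436, 5.104 and 5.087 (control and miR-21 replicate 1, then control and miR-21 replicate 2). On all 4 arrays 9671 of 19775 genes (48.9%) passed, against 5 of the 136 genes that set the limit. Of 21 T lineage markers measured, 18 passed on all 4 arrays. CD3D, a subunit of the T cell receptor complex, read 12.13 and 12.94 in the control arrays and 12.11 and 12.78 in the miR-21 arrays. LCK, the kinase that starts receptor signalling, read 11.04 and 12.42 in the controls and 11.34 and 12.31 with miR-21. RAG1 and PTCRA, which serve receptor gene rearrangement and the pre-T cell receptor in thymocytes, also passed. RAG1 read 7.40 and 9.53 in the controls and 7.41 and 9.68 with miR-21. PTCRA read 5.70 and 6.85 in the controls and 5.81 and 6.66 with miR-21. Those PTCRA levels were below the 99th percentile of the background genes on every array. The markers that did not pass on every array were CD4, at 4.63 to 4.99, CD28, at 4.16 to 4.64, and CD8A, at 3.75 to 5.62. Between constructs, 5 of the 21 markers were higher with miR-21 in both replicates and 5 lower in both, with median paired differences of 0.01 and -0.03.

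Among 26 transcription factors linked to T-cell leukaemia, 20 passed on all 4 arrays. TAL1, a stem-cell leukaemia factor expressed in this line, read 10.07 and 11.04 in the controls and 10.31 and 11.15 with miR-21. GATA3, a T-cell identity factor, read 10.59 and 11.62 in the controls and 10.92 and 11.48 with miR-21. NKX2-1 read 5.61 and 6.54 in the controls and 5.95 and 6.71 with miR-21, below the 99th percentile of the background genes on every array. Its second probe set read 4.22 and 4.78 in the controls and 4.31 and 4.72 with miR-21, below the 95th percentile on every array. The 6 that did not pass on every array were LMO2, LYL1, TLX1, TLX3, MEF2C and ERG. The median paired differences of the 21 factors that passed the filter on low values were 0.07 and -0.02. Markers of 6 other cell types were checked as well, and 7 of 52 passed on all 4 arrays. They were CD79A and POU2AF1 from the B cell list, CST3 from the monocyte list, HBB from the erythroid list, KRT18 and PAX8 from the epithelial list and COL1A1 from the fibroblast list. By list, 2 of 9 B cell, 1 of 12 monocyte, 1 of 6 erythroid, 2 of 10 epithelial, 1 of 8 fibroblast and 0 of 7 natural killer cell markers passed. MS4A1, PAX5, CD14, LYZ, EPCAM, CDH1 and NKG7 were among those that did not. Few genes switched sides between constructs: 1 (HRH1) was above background on both control arrays and on neither miR-21 array, and 27 were above it on both miR-21 arrays and neither control array, where the limit of miR-21 replicate 1 was also the lowest of the 4.

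**Figure D1:**
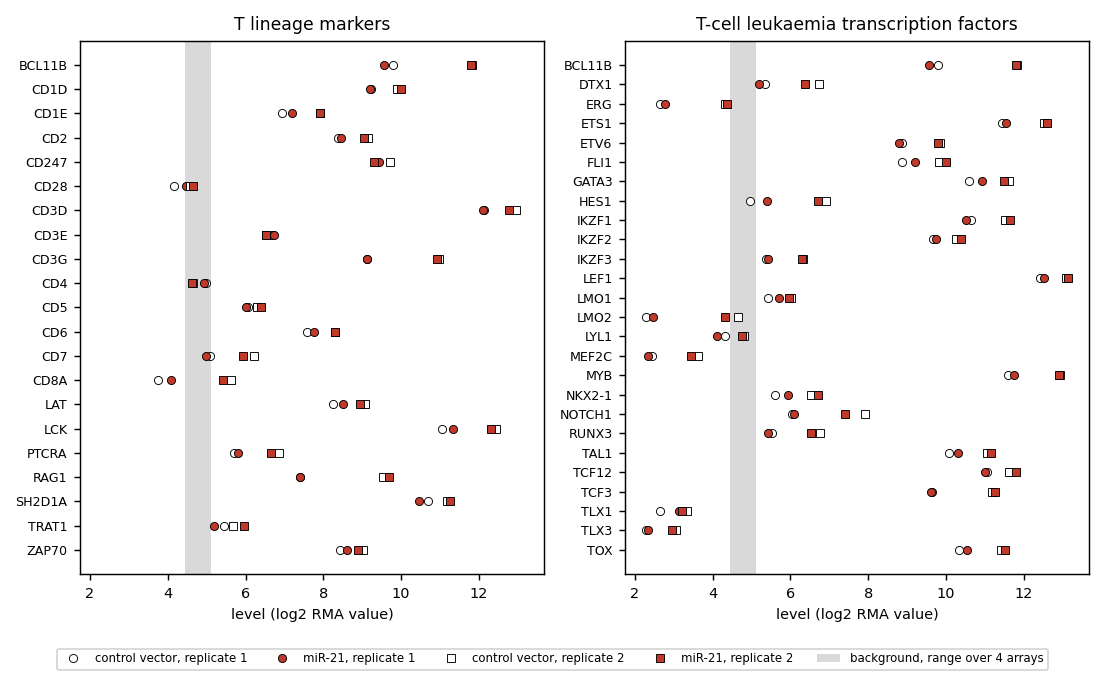
Levels (log2 RMA value, horizontal axis) of T lineage markers and T-cell leukaemia transcription factors on the 4 Total RNA arrays, with open symbols for the control vector, filled symbols for miR-21, circles for replicate 1 and squares for replicate 2. The grey band is the range of the background limit over the 4 arrays (4.436 to 5.104); symbols of 1 replicate mostly sit together, and genes such as CD3D, LCK, TAL1 and GATA3 lie far to the right of the band under both constructs.

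No gene passed the test between constructs. With limma fitted to all 12 arrays without a replicate term, 0 of 12824 genes (0%) had an adjusted p under 0.05 for miR-21 against control in Total RNA, the smallest adjusted p was 1, and 0 genes had an unadjusted p under 0.05. With the replicate number as a block in the same fit, 0 genes passed after adjustment and 3 (0.0234%) had an unadjusted p under 0.05. Fitting the 4 Total RNA arrays alone with the block gave 0 genes after adjustment, a smallest adjusted p of 0.946, and 652 genes (5.08%) with an unadjusted p under 0.05, of which 362 were higher and 290 lower with miR-21. The median standard error of a log2 difference was 0.774 without the block over 12 arrays and 0.122 for the 4 arrays with it, so moderate changes were within the error of the first fit. A miss of the threshold does not show that a gene had equal levels.

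The 2 paired differences did not go together across genes. Replicate 1 had a standard deviation of 0.215 over the 12824 genes and a median of 0.04, and replicate 2 had 0.198 and a median near 0. The correlation between them was 0.018 (Pearson) and 0.018 (Spearman), a description over genes, which are not independent samples. Both differences were above 0 for 3734 genes (29.1%) and below 0 for 2788 (21.7%), and their signs were opposite for 6302 (49.1%). Among genes past 0.3 in size in both replicates, 86 were higher with miR-21 (0.671%), 74 were lower (0.577%) and 162 had opposite signs (1.26%). At 0.15 the shares were 5.47% higher, 4.28% lower and 9.38% opposite. The share of same-sign genes was thus 160 of 322, or 49.7% (Wilson 95% interval 44.3 to 55.1, which treats genes as independent). At a size of 0.5 in both replicates, 4 genes had the same sign (0.0312%) and 8 had opposite signs (0.0624%).

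Both miR-21 arrays lay above both control arrays for 93 genes (0.725%) and below them for 208 (1.62%). These counts set arrays of different replicate numbers side by side, which were offset as given above. They therefore depend on each gene's gap between replicates and do not measure the construct alone. The same limit holds for each remark on overlap between groups in single genes. The spread of the paired difference shrank with expression. In the lowest quartile of tested genes by mean level in the 4 arrays (3.4 to 5.39) the standard deviations were 0.257 and 0.228, and in the highest quartile (8.77 to 14.5) they were 0.164 and 0.149. The correlation between replicates was -0.0085 in the lowest quartile, 0.017 and 0.045 in the middle quartiles and 0.038 in the highest. In the highest quartile 3 genes were higher and 7 lower by at least 0.3 in both replicates, and 7 had opposite signs at that size.

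**Figure D2:**
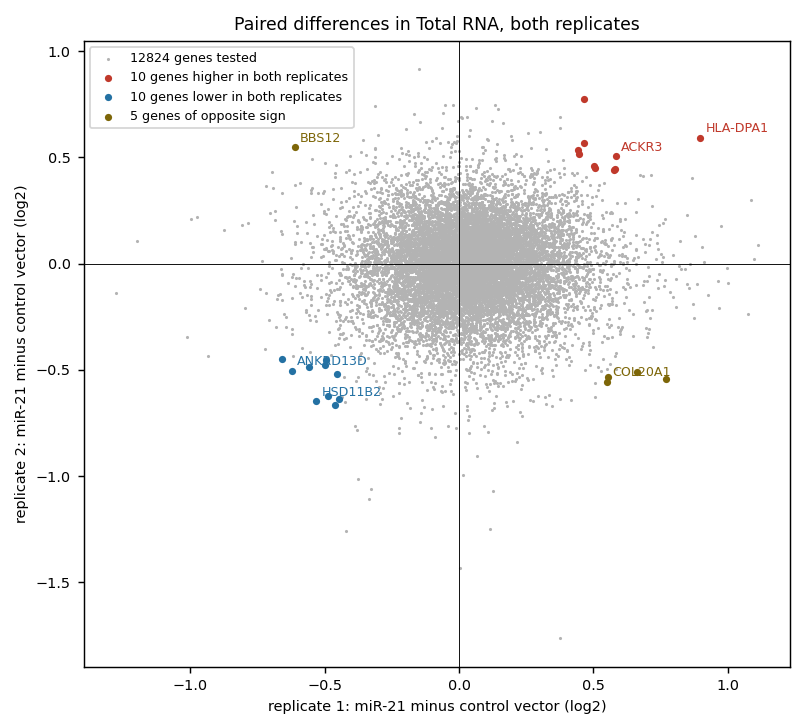
Paired difference (miR-21 minus control vector, log2) in replicate 1 on the horizontal axis and in replicate 2 on the vertical axis, 1 point per gene for the 12824 genes tested. The cloud is round (r = 0.018); coloured points are the 10 genes with the largest agreeing differences in each direction and the 5 with the largest opposite ones, and labels name 2 of each coloured direction.

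The genes named next were ranked by the smaller of their 2 paired differences among genes of the same sign. That choice uses the differences themselves, so their values are a description and carry no test; all had an adjusted p of 0.946 or more in limma on the 4 arrays with the replicate block. HLA-DPA1, the alpha chain of an MHC class II molecule, read 3.28 and 4.78 in the control arrays and 4.18 and 5.38 with miR-21, paired differences of 0.90 and 0.59 (mean 0.75 ± 0.22, SD, n = 2). The groups overlapped, and its other probe sets did not repeat the difference (0.19 and -0.16 in one, -0.04 and -0.05 in the other). JAK2, a cytokine receptor kinase, read 4.21 and 5.45 in the controls and 4.68 and 6.22 with miR-21, differences of 0.46 and 0.77. The other JAK2 probe sets gave -0.36 and 0.48, and 0.16 and -0.11.

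CTDSPL2, a phosphatase, read 7.68 and 9.78 in the controls and 8.18 and 10.23 with miR-21, differences of 0.50 and 0.45 (mean 0.48 ± 0.04, SD, n = 2). Its 3 other probe sets gave 0.15 and 0.15, -0.01 and -0.14, and 0.28 and 1.06. ELK3, an ETS transcription factor that responds to RAS-ERK signalling, read 6.13 and 7.69 in the controls and 6.71 and 8.13 with miR-21. RFX3, a transcription factor of ciliated cells, read 6.12 and 6.65 in the controls and 6.59 and 7.22 with miR-21. The second ELK3 probe set gave 0.20 and 0.07, and the other RFX3 probe sets gave -0.27 and 0.08, 0.23 and 0.30, and -0.21 and 0.41. CTDSPL2, ELK3 and RFX3 were the only genes of these 10 above background on all 4 arrays. The other 5 were ACKR3, an atypical chemokine receptor (0.58 and 0.51), HEY2, a NOTCH-responsive repressor (0.50 and 0.46), MAP3K14, the NF-kB-inducing kinase (0.45 and 0.51), LCN10, a lipocalin (0.44 and 0.53), and TNFSF4, the OX40 ligand (0.58 and 0.44). The second HEY2 probe set was lower in both replicates (-0.15 and -0.26), as were both other ACKR3 probe sets (-0.20 and -0.07, and -0.03 and -0.07). Their levels ran from 2.54 to 6.44 over the 4 arrays.

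Among genes lower with miR-21 in both replicates, HSD11B2, which inactivates cortisol, had the largest agreeing difference. It read 4.38 and 4.70 in the controls and 3.85 and 4.05 with miR-21, differences of -0.53 and -0.65, with no array above background and no overlap between groups. FADS2, a fatty acid desaturase, read 8.61 and 7.85 in the controls and 8.05 and 7.37 with miR-21, differences of -0.56 and -0.49 (mean -0.52 ± 0.05, SD, n = 2), with -0.01 and -0.28 in a second probe set. SASH3, a lymphocyte signalling adaptor, read 9.28 and 8.45 in the controls and 8.63 and 8.01 with miR-21. For both genes replicate 1 lay above replicate 2 under either construct, and the groups overlapped.

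TRAPPC3, a subunit of a vesicle tethering complex, read 8.98 and 8.90 in the controls and 8.52 and 8.38 with miR-21, so that both miR-21 arrays lay below both controls. Its second probe set was lower as well, by -0.18 and -0.32. MRPL12, a mitochondrial ribosome protein, read 9.28 and 9.48 in the controls and 8.83 and 8.84 with miR-21, again without overlap, but its second probe set gave 0.42 and -0.27. METRN, a secreted neurotrophic factor, gave -0.50 and -0.47, with -0.36 and -0.30 in a second probe set and 0.18 and 0.09 in another. The remaining 4 were ANKRD13D (-0.62 and -0.50, with 0.11 and 0.45, and 0.00 and -0.22, in its other probe sets), the sodium-proton exchanger gene SLC9A8 (-0.49 and -0.62), LINC01743 (-0.46 and -0.67) and the DNA repair gene MRNIP (-0.50 and -0.45). Of the 10, LINC01743 and HSD11B2 were above background on 0 arrays and ANKRD13D on 3. Of these 20 genes, higher and lower, 12 had other probe sets, 21 in all, of which 7 went the same way in both replicates, 7 the contrary way in both and 7 had opposite signs. Over all 126 named genes of the same sign in both replicates, 56 of 167 other probe sets went the same way, 35 the contrary way and 76 had opposite signs.

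**Figure D3:**
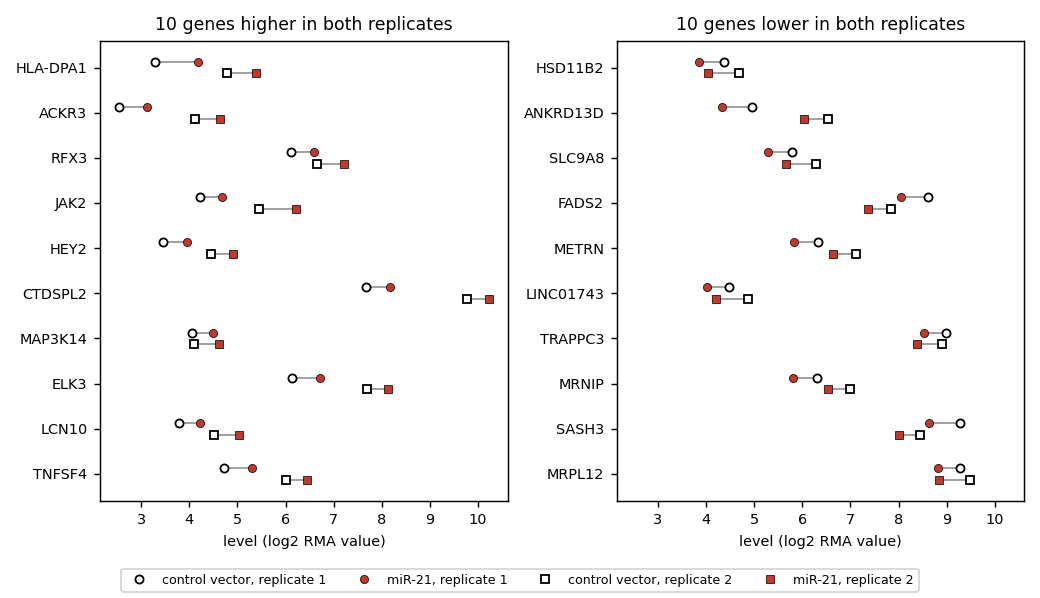
Levels (log2 RMA value, horizontal axis) of the 10 genes with the largest agreeing differences in each direction, with open symbols for the control vector, filled symbols for miR-21, circles for replicate 1, squares for replicate 2 and a line joining each pair. HLA-DPA1 spans 3.28 to 5.38 and CTDSPL2 7.68 to 10.23; in most genes the gap between replicates is wider than the gap between constructs.

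Differences of the same size also ran in opposite directions. ASS1, the argininosuccinate synthase of arginine synthesis, read 8.30 in the control and 8.85 with miR-21 in replicate 1, and 10.91 in the control and 10.38 with miR-21 in replicate 2. BBS12, a ciliary chaperonin-like gene, gave -0.61 and 0.55, MKX, a homeobox gene, 0.77 and -0.54, HOXB9 0.66 and -0.51, and COL20A1 0.55 and -0.56. These genes had no agreed direction.

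Differences of at least 1 in a single replicate occurred in 8 genes in replicate 1 and 8 others in replicate 2. In replicate 1, the histone chaperone gene NPM3 gave -1.28 (-0.14 in replicate 2), FAM111B -1.20 (0.11), GTF2H4, a subunit of transcription factor TFIIH, -1.01 (-0.34), RAB27B, a secretory vesicle GTPase, 1.11 (0.09), CD24 1.10 (0.02), PPP1R9B 1.09 (0.30), ANXA3 1.07 (-0.24) and CTHRC1 1.00 (-0.09). In replicate 2 all 8 were lower with miR-21. SLC7A5, the light subunit of a leucine transporter, read 10.21 and 10.54 in the controls and 9.88 and 9.47 with miR-21, differences of -0.33 and -1.06. MOGS, an enzyme of glycoprotein trimming, gave -0.42 and -1.26, PACSIN3 -0.34 and -1.11, and the zinc transporter gene SLC39A1 -0.38 and -1.01. NEURL1B gave 0.38 and -1.76, MCOLN1 0.11 and -1.25, and GRIPAP1 0.13 and -1.07. The eighth, a probe set annotated to MIR142, gave 0.00 and -1.43. Of the 16 genes, 9 had the same sign in both replicates.

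Messenger RNAs reported as direct miR-21 targets were not lower as a list in Total RNA. The list held 61 genes, of which 53 were measured, 38 were above background on all 4 arrays and 41 passed the filter on low values. None of the 41 passed the limma test. Both differences were above 0 for 15 of the 41 (36.6%, against 29.1% of all genes tested), both were below 0 for 6 (14.6%, against 21.7%), and 20 had opposite signs. The median difference was 0.06 in replicate 1 and 0.02 in replicate 2, beside 0.04 and near 0 for all genes. Past 0.15 in both replicates, 3 targets were higher with miR-21 and 0 were lower, where 5.47% and 4.28% of all genes were.

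The RAS-ERK inhibitors of the Sprouty family are among the best known targets. SPRY1 read 5.97 and 7.64 in the controls and 6.01 and 7.54 with miR-21, a mean difference of -0.03 with a 95% interval of -0.31 to 0.24 (limma, 4 arrays with the replicate block). SPRY2 read 7.65 and 8.21 in the controls and 7.79 and 8.20 with miR-21, a mean difference of 0.06 (-0.21 to 0.34). SPRY4 gave -0.32 and -0.08. TGFBR2, the type II TGF-beta receptor, read 6.28 and 7.08 in the controls and 6.39 and 7.11 with miR-21, a mean difference of 0.07 (-0.20 to 0.34). RECK, an inhibitor of metalloproteinases, had a mean difference of -0.03 (-0.33 to 0.27), and TPM1, a tropomyosin, one of 0.08 (-0.19 to 0.36). Each interval comes from 1 probe set and leaves out the spread between probe sets. The other SPRY1 probe set gave 0.11 and -0.45, and that of TGFBR2 0.51 and 0.19. Those of RECK gave 0.50 and 0.30, -0.30 and 0.15, 0.13 and -0.05, and 0.17 and -0.06. Those of TPM1 gave 0.07 and 0.21, 0.19 and 0.14, -0.02 and 0.08, 0.34 and 0.22, and 0.12 and 0.26. The lower bounds of these 5 intervals lay between -0.33 and -0.19. That fit has 1 residual degree of freedom; in the fit of all 12 arrays with the block the lower bounds of the same genes lay between -1.48 (TGFBR2) and -0.57 (SPRY2).

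SATB1, a chromatin organiser of T cells, read 11.58 and 12.09 in the controls and 11.32 and 12.13 with miR-21, a mean difference of -0.11 (-0.40 to 0.18). Its other probe sets gave -0.19 and 0.42, and -0.33 and -0.31. STAT3 read 8.51 and 9.69 in the controls and 8.70 and 9.47 with miR-21. The 6 targets lower in both replicates were BCL2, which blocks apoptosis (-0.37 and -0.10), LRRFIP1 (-0.12 and -0.34), SPRY4, the cell-cycle phosphatase gene CDC25A (-0.12 and -0.25), the RNA-binding protein gene HNRNPK (-0.23 and -0.11) and E2F1, a driver of S phase entry (-0.13 and -0.11). Other BCL2 probe sets gave 0.33 and -0.44, -0.13 and -0.41, and -0.02 and -0.22. The 3 targets higher past 0.15 were BMPR2, a type II BMP receptor, DOCK4, an activator of RAC, and JAG1, a NOTCH ligand. BMPR2 read 6.85 and 8.10 in the controls and 7.31 and 8.43 with miR-21, differences of 0.45 and 0.33. Of the 5 other BMPR2 probe sets, 2 were higher in both replicates (0.31 and 0.19, and 0.17 and 0.24), 1 was lower in both (-0.12 and -0.10) and 2 had opposite signs (0.09 and -0.05, and -0.04 and 0.25). DOCK4 read 6.28 and 7.16 in the controls and 6.58 and 7.48 with miR-21, while its other probe sets gave -0.07 and -0.17, -0.13 and 0.28, and 0.02 and -0.22. JAG1 read 3.81 and 6.75 in the controls and 4.47 and 7.05 with miR-21. Of its 5 other probe sets, 3 were higher in both (0.60 and 0.15, 0.06 and 0.01, and 0.15 and 0.20) and 2 had opposite signs (0.26 and -0.15, and 0.06 and -0.11).

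PDCD4, a translation inhibitor and one of the first reported targets, had 1 probe set of its own, which read 2.41 and 3.02 in the controls and 2.51 and 3.21 with miR-21, below background on every array. The 4 probe sets annotated to PDCD4 together with another gene read higher. Probe set 202730_s_at gave paired differences of 0.06 and 0.03, 202731_at 0.03 and 0.25, 212593_s_at 0.27 and -0.16, and 212594_at 0.30 and -0.27. None of these 4 was lower with miR-21 in both replicates. Members of the list without a probe set of their own were not analysed here. ANKRD46, a reported target outside the list that was chosen after its values were seen, read 8.26 and 9.77 in the controls and 7.87 and 9.01 with miR-21, differences of -0.39 and -0.76.

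**Figure D4:**
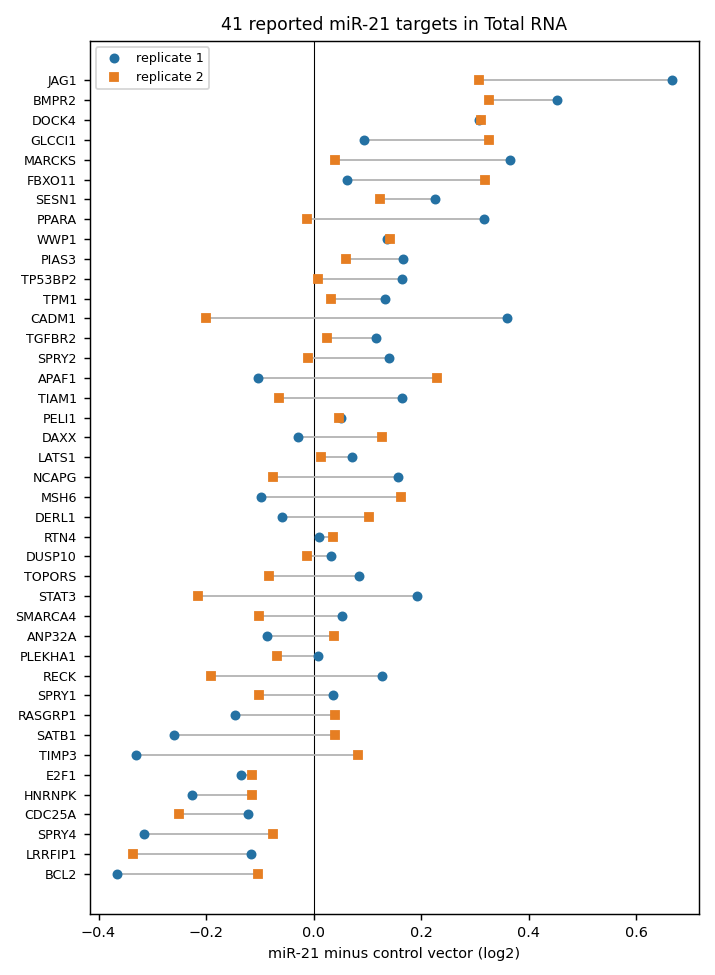
Paired differences (miR-21 minus control vector, log2) of the 41 reported miR-21 targets tested, with circles for replicate 1, squares for replicate 2, a line joining them and genes sorted by their mean. The points lie on both sides of 0: BCL2 is lowest on the mean of both replicates, JAG1 and BMPR2 highest, and 20 genes have a point on each side.

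Genes of other pathways were described in the same way, from lists compiled with earlier results of these data known. In the limma test 0 members of any list passed. Most genes named with a list were picked for the largest agreeing differences among its members. Their values are therefore a description, carry no test and do not stand for their list. Over all genes tested, 29.1% were higher in both replicates and 21.7% lower in both, the shares to set beside every count below. Reported targets of the miR-17 to miR-92 cluster, a group of growth-promoting microRNAs, were higher in both replicates for 7 of 14 tested and lower in both for 3, with medians of 0.14 and 0.12. PHLPP1, a phosphatase that acts on AKT, gave 0.57 and 0.18, SMAD4 0.37 and 0.15, and the peroxisomal acyltransferase gene CROT -0.24 and -0.36. The second PHLPP1 probe set gave 0.37 and 0.11. Other SMAD4 probe sets gave -0.23 and 0.16, -0.23 and 0.15, 0.00 and 0.08, and -0.08 and -0.14. Those of CROT gave 0.11 and 0.04, and -0.22 and 0.31. Of 24 inhibitors of RAS-ERK and PI3K-AKT signalling, 9 lay higher in both pairs and 2 lower in both, with medians of 0.16 and 0.02. SPRED1, an ERK pathway inhibitor related to the Sprouty genes, gave 0.54 and 0.11. Of 21 TGF-beta and BMP pathway genes, 12 lay higher in both pairs and 5 lower in both, with medians of 0.12 and 0.10. Beside BMPR2, the activin and BMP receptor genes ACVR2A (0.30 and 0.22) and ACVR1 (0.26 and 0.16) were higher in both replicates. The second ACVR2A probe set gave 0.26 and -0.001. The signal carriers SMAD3 (0.03 and -0.14) and SMAD1 (0.30 and -0.08) were not higher in both.

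The machinery of microRNA action itself showed small differences. Of 30 genes of miRNA biogenesis and silencing, 12 were higher in both replicates and 2 lower in both, with medians of 0.09 and 0.06. AGO2, whose protein was the target of the precipitations, read 7.03 and 7.85 in the controls and 7.25 and 7.79 with miR-21. DICER1, which cuts hairpins into mature microRNAs, read 8.09 and 8.49 in the controls and 8.11 and 8.69 with miR-21. AGO3 gave 0.26 and 0.23 and the deadenylase subunit gene PAN2 0.38 and 0.16, among the larger agreeing values of the list. Other AGO3 probe sets gave -0.29 and 0.04, 0.11 and 0.11, and 0.04 and 0.35.

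In T cell receptor signalling, 13 of 39 genes were higher in both replicates and 4 lower in both, with medians of 0.06 and 0.04; the median of the mean differences, 0.0272, was -0.001 after cyclic loess scaling. PAG1, a membrane adaptor that recruits the inhibitory kinase CSK, gave 0.31 and 0.29, and RHOH, a lymphoid GTPase, -0.30 and -0.07. The other PAG1 probe sets gave 0.21 and 0.39, and 0.51 and 0.37, and the second RHOH probe set 0.55 and -0.24. PLCG1 (0.44 and -0.04) and VAV1 (0.37 and -0.13), which carry the signal on from the receptor, had opposite signs. Of 17 genes induced on T cell activation, 4 lay higher in both pairs and 5 lower in both, with medians of 0.19 and -0.10; the median of the mean differences, 0.0345, was -0.0292 with the mean of probe sets. CD69, an early activation antigen, read 7.56 and 7.27 in the controls and 8.22 and 7.30 with miR-21, so that only replicate 1 showed a difference (0.66, against 0.03). The ERK phosphatase genes DUSP6 (0.51 and 0.12) and DUSP4 (0.18 and 0.34) were higher in both on the probe sets used. Their other probe sets gave 0.67 and -0.27 and 0.08 and -0.02 for DUSP6, and 0.88 and 0.02 and 0.61 and -0.09 for DUSP4.

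The medians of some lists lay away from 0 in 1 replicate. Of 30 mitosis genes, 28 (93.3%) were higher with miR-21 in replicate 1 and 14 (46.7%) in replicate 2, with medians of 0.27 and -0.01. Among all genes tested, 57.4% were higher in replicate 1 and 49.8% in replicate 2. KIF2C, a kinesin that depolymerises microtubules, gave 0.63 and 0.01, the kinetochore gene NUF2 0.61 and 0.00, and CDK1, the kinase of mitotic entry, 0.47 and -0.10. AURKA read 9.29 and 11.54 in the controls and 9.82 and 11.70 with miR-21, and its other probe sets gave 0.65 and -0.20, and 0.07 and -0.05. BUB1, a spindle checkpoint kinase, gave 0.50 and 0.15, with 0.76 and 0.83, -0.15 and 0.84, -0.05 and 0.03, and -0.27 and 0.06 in its other probe sets. DNA replication genes did not share this pattern of medians: of 41, 15 lay higher in both pairs and 10 lower in both, with medians of 0.05 and near 0 and a median of the mean differences of -0.0103 (0.0111 with the mean of probe sets). PRIM2, a primase subunit, gave -0.34 and -0.25, and GINS3, of the replicative helicase, 0.25 and 0.20.

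Nuclear-encoded subunits of oxidative phosphorylation were lower in both replicates for 33 of 65 (50.8%) and higher in both for 5 (7.69%), beside 21.7% and 29.1% of all genes. The medians were -0.02 and -0.09, so the differences were small, and 29 of 65 were higher in replicate 1 against 8 of 65 in replicate 2. NDUFS6, a complex I subunit, read 10.77 and 12.06 in the controls and 10.34 and 11.80 with miR-21, differences of -0.43 and -0.26. NDUFB7, another complex I subunit, gave -0.21 and -0.28, with 0.04 and 0.21 in its second probe set. The ACTB and GAPDH 3′ to 5′ differences were lower in the miR-21 array of both replicates, and their part in this pattern was not tested. Cholesterol synthesis genes were lower in both for 8 of 19 and higher in both for 1, with medians of -0.04 and -0.04. The cholesterol enzyme genes PMVK (-0.11 and -0.24) and NSDHL (-0.18 and -0.16) were examples. Of 51 cytosolic ribosomal protein genes, 13 lay higher in both pairs and 15 lower in both, with medians of 0.03 and -0.02 and a median of the mean differences of 0.00101 (-0.0374 after cyclic loess).

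Stress and death pathways held single genes of larger size within lists of small median difference. Of 36 genes of the unfolded protein and integrated stress responses, 8 lay higher in both pairs and 4 lower in both, with medians of 0.09 and -0.05 and a median of the mean differences of 0.00604 (-0.0284 after cyclic loess). SDF2L1, an endoplasmic reticulum chaperone component, read 8.42 and 8.86 in the controls and 7.69 and 8.46 with miR-21, and the amino acid transporter gene SLC7A5 described above was also in this list. Not all genes of the list were lower: the co-chaperone gene DNAJB9 gave 0.17 and 0.38. Of 17 heat shock genes, 9 (52.9%) lay higher in both pairs and 2 lower in both, with medians of 0.08 and 0.05. The median of their mean differences was 0.065 (0.0264 after cyclic loess). DNAJB4, a co-chaperone, gave 0.76 and 0.19, and its second probe set 0.51 and 0.58. Of 27 apoptosis regulators, 5 lay higher in both pairs and 6 lower in both; FADD, the adaptor of death receptors, gave -0.30 and -0.34 and BIRC2, an inhibitor of apoptosis, 0.20 and 0.21.

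Of 19 p53 target genes tested, 11 lay higher in both pairs (57.9%, against 29.1% of all genes tested). In both pairs 0 lay lower, against 21.7% of all genes. Past 0.15 in both replicates, 0 were higher and 0 lower, where 5.47% and 4.28% of all genes were. In replicate 1 89.5% were higher and in replicate 2 68.4%, against 57.4% and 49.8% of all genes. The medians were 0.13 and 0.05, beside 0.04 and near 0 for all genes. RRM2B, a ribonucleotide reductase subunit, gave 0.32 and 0.10 and CDKN1A, the cell-cycle inhibitor p21, 0.13 and 0.13. Of 29 interferon response genes, 10 lay higher in both pairs and 3 lower in both. IFIT1, an antiviral RNA-binding protein, read 4.62 and 5.98 in the controls and 4.99 and 6.40 with miR-21, differences of 0.37 and 0.43. Of 26 glycolysis and hypoxia genes, 5 were higher and 4 lower in both. Of 18 replication-dependent histone genes, 3 were higher and 6 lower in both, with medians of -0.13 and 0.02; H1-2, a linker histone, gave -0.19 and -0.66.

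**Figure D5:**
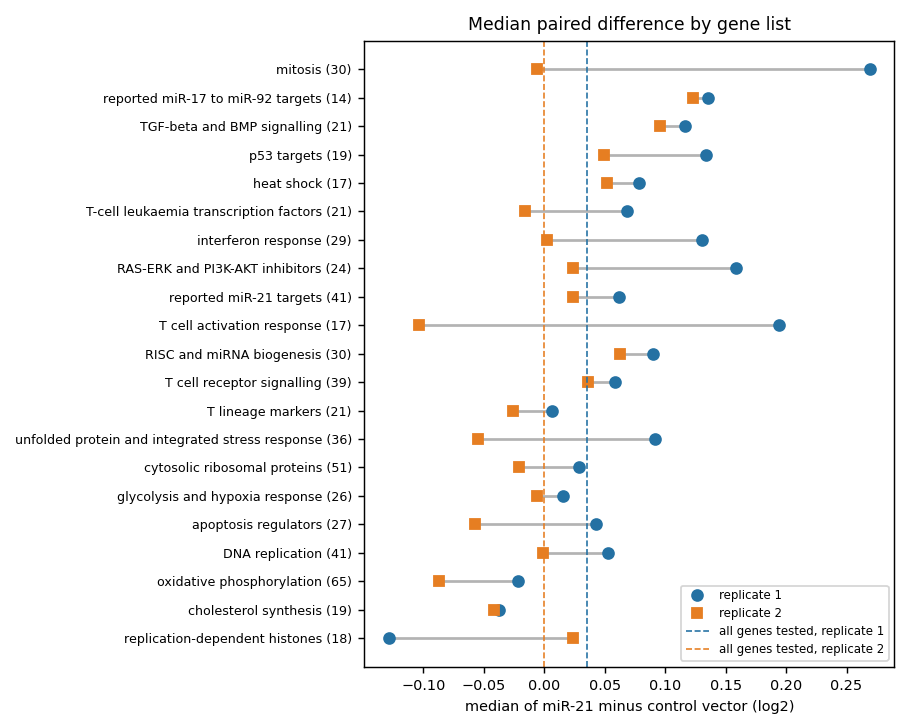
Median paired difference (miR-21 minus control vector, log2, horizontal axis) of the pathway, target, T lineage and leukaemia factor lists, with circles for replicate 1, squares for replicate 2, the number of genes tested in brackets and dashed lines for the median of all genes tested in each replicate. The mitosis list (0.27 and -0.01) and the T cell activation list (0.19 and -0.10) have wide gaps between replicates.

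Beside the precipitated RNA, the Total RNA pairs were the closest. The standard deviation of the paired difference was 0.215 and 0.198 in Total RNA, 0.513 and 0.607 in AGO2 RNA and 0.306 and 0.619 in IgG RNA. The difference in response to the construct between Total RNA and AGO2 RNA was tested as an interaction in limma over 12 arrays. After adjustment 0 genes (0%) passed, and 0 without the block and 60 (0.468%) with it had an unadjusted p under 0.05. The median standard error of the interaction was 1.1 without the block and 0.496 with it. A count of 0 therefore does not show that the responses were equal. JAK2, on the probe set used, gave 0.46 and 0.77 in Total RNA, -1.29 and -0.79 in AGO2 RNA, and -0.16 and -1.51 in IgG RNA. It was named for its Total RNA differences, so these values are a description and carry no test. Its other probe sets gave -0.36 and 0.48, and 0.16 and -0.11, in Total RNA. Across genes, the Total RNA difference correlated with the AGO2 difference of the same number at 0.181 in replicate 1 and -0.128 in replicate 2, and with the IgG difference at 0.0996 and -0.221, so neither fraction had 1 direction of association with Total RNA.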

How the data were processed

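Gene expression was measured on 12 Affymetrix arrays. The deposited series table holds log2 values per probe set, made by the authors with RMA, per the submitters' processing notes. The RMA version, and whether all arrays were normalized together, are not stated in the labels or notes used. The array means differed by replicate number, as given above. The platform annotation names 1 gene for 41091 probe sets, several for 1801 (given by probe set ID only); 41037 of the 41091 matched a current RefSeq symbol. A gene was represented by its brightest probe set (mean of 12 arrays). limma 3.58.1 (R 4.3.3, lmFit, eBayes, Benjamini-Hochberg) was fitted to the 12824 genes that passed the filter on low values, with 1 mean per construct and fraction. Simulated data served to check its mean estimate against the size put in. How often the fits find a real change is not reported here. Same-numbered arrays deviated together (15 pairs of groups, correlation 0.468 to 0.873, median 0.601), so the replicate number was also fitted as a block.

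Named genes were the 10 with the largest smaller paired difference in each direction and the 5 largest of opposite sign. All differences of at least 1 in 1 replicate and targets past 0.15 in both replicates were named too. From each other list up to 4 genes were named, those with the largest mean difference among members of the same sign in both replicates. A fixed set of reported targets was named whatever their values. Some list members, such as PLCG1 and CDK1, were named outside these rules. Members and lists were chosen with earlier results of these data known. Alternatives tried were the block, 4 arrays alone, the filter, the probe set rule, median and cyclic loess scaling, the size threshold, the background percentile and leaving out each array. The precision is limited by 2 arrays per group.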

Additional observations from a re-analysis of the deposited data

How the results depend on the processing

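The count of 0 genes passing the limma test held in every setting run with 2 arrays per group, with and without the replicate block, on 12 or 4 arrays. Over 12 arrays the median standard error was 0.774 without the block and 0.351 with it. For the 4 arrays it was 0.806 without the block and 0.122 with it. Fits with the larger errors could hardly call a gene, so their counts of 0 add little. The number of genes past 0.3 with the same sign in both replicates, 160, was 251 without the filter on low values, 55 with a stricter one, 91 with the mean of a gene's probe sets, 4 at a size of 0.5 and 80 among genes above background (the last chosen after seeing the data). The same-sign share, 49.7%, was 33.3% at a size of 0.5 and 49.1% to 53.4% otherwise, and the correlation between replicates ran from 0.005 to 0.035. Against the 99th percentile of the background genes 6182 genes passed in place of 9671, 13 T lineage markers and 0 markers of other cell types in place of 7; with the mean of probe sets 3 of those markers passed. Leaving out 1 array gave 9681 to 10210 genes, 18 T lineage markers and 7 to 8 others. Of the 20 genes with the largest agreeing differences and the 3 targets beside them, 0 changed sign under median centring, cyclic loess or the mean of probe sets; with the replicate block, leaving out 1 array turned 1, 1, 1 and 0 of them (HLA-DPA1, BMPR2 and JAK2). Without the block the same omissions turned 10, 1, 1 and 8 of them (control and miR-21 of replicate 1, then of replicate 2). Besides the lists whose turned medians stand with their counts, the median of the mean differences went from 0.0614 to -0.00206 for the T-cell leukaemia factors with the mean of probe sets, and under cyclic loess from 0.0065 to -0.00213 for T lineage markers and from 0.000565 to -0.0186 for glycolysis; lists of 4 other cell types also turned with the mean of probe sets. With 2 arrays per group, differences near the size of the replicate spread were not detectable.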

Other observations

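Values of the construct comparison in the other fractions are given for completeness. In limma over 12 arrays 0 genes had an adjusted p under 0.05 in AGO2 RNA or in IgG RNA. At an unadjusted p under 0.05 there were 11 genes without and 353 (2.75%) with the replicate block in AGO2 RNA, and 4 and 123 (0.959%) in IgG RNA. The paired differences of replicates 1 and 2 correlated across genes at -0.0532 in AGO2 RNA and 0.0721 in IgG RNA, whereas the AGO2 and IgG differences of replicate 2 correlated at 0.84. Probe set 224917_at, annotated to the miR-21 gene and another, gave 1.71 and -1.14 in AGO2 RNA and 2.04 and -0.88 in IgG RNA. The spike-in control bioB read 6.87 and 5.77 in the control and miR-21 arrays of replicate 1 in Total RNA, and 4.76 and 4.83 in those of replicate 2.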
